A study of Mus musculus with 20 samples.

Results

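The Zfp genes are mouse genes named for a zinc finger protein, and the members described here are those whose symbol begins with Zfp and a digit and whose mean over the 12 libraries of the Myc experiment is at least 5 CPM (counts scaled to the total of the library). Of 13107 genes in that table, 348 carry such a symbol and 280 are members, while 68 lie below the minimum. Of the members, 277 are among the 11210 genes of the HU experiment, and Zfp184, Zfp273 and Zfp931 are not in that table. The nearest genes inside the minimum were Zfp273, at 5.01 CPM, Zfp446, at 5.08, and Zfp689, at 5.10, and the nearest outside were Zfp235, at 4.96 CPM, Zfp563, at 4.91, and Zfp85, at 4.79. The rule used the name and the mean level over all 12 libraries, KO groups included. It was set with earlier results of these data known, so that the choice is not independent of the comparisons.

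A zinc finger of the C2H2 kind is a short loop of protein held by a zinc ion, and arrays of such fingers read DNA sequence. Many of these proteins also carry a KRAB domain, which binds the corepressor Trim28 and through it the histone methyltransferase Setdb1, so that chromatin at the bound site is silenced. KRAB zinc finger genes lie in clusters of similar copies and are best known for silencing retroelements, and Trim33, the gene removed here, is a relative of Trim28 in the TIF1 family. A few Zfp genes encode other proteins, such as the CCCH zinc finger proteins that speed the decay of mRNA.

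The cells were p19/Nras cells, which come from a mouse liver tumor driven by Nras on a p19Arf-null background, and each group held 2 libraries. In the Myc experiment, Trim33-WT cells, which had received a control guide, and the CRISPR lines Trim33-KO1 and Trim33-KO2 carried either a pWZL Ctrl vector or a Myc vector, which gave the groups WT Ctrl, KO1 Ctrl, KO2 Ctrl, WT Myc, KO1 Myc and KO2 Myc. In the HU experiment, hydroxyurea (HU), a drug that stalls DNA replication, was given at 1 mM for 4 h to Trim33-WT and to Trim33-KO cells, each with an untreated group, and the KO line there is not named as KO1 or KO2. A KO line is 1 edited line, so that Trim33 loss and whatever else differs between the lines cannot be told apart. The labels do not say whether libraries of a group came from separate cultures, so that p-values measure the spread between these libraries, which may be technical. Library totals lay between 14753177 and 17949430 counts in the Myc experiment, and between 2315327 and 3082202 under the shallower sequencing of the HU experiment. In cell mixtures, fewer cells with a transcript and less transcript per cell cannot be told apart. Of 11 hepatocyte markers, 3 are listed for the Myc experiment (Krt8, Krt18 and Afp) and 4 for the HU experiment, while 0 of 4 endothelial markers are in either. Summed levels of the 5 fibroblast or stellate markers found in the Myc experiment ranged from 104 to 788 CPM over the libraries, and those of the 3 found in the HU experiment from 7.88 to 65.2. Krt19 and Sox9, the 2 of 4 cholangiocyte markers found, summed to between 78.9 and 578 CPM in the Myc experiment and between 156 and 437 in the HU experiment. The 1 leukocyte marker found, Cd68, was at 6.39 CPM at most. For all of these markers, their part in the results was not tested.

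Trim33 and Myc were read first, as a check of the labels. Trim33 mRNA was at 236 and 247 CPM in WT Ctrl, at 122 and 130.3 for KO1 Ctrl, and at 204 and 210.0 for KO2 Ctrl. Under the label KO1 Myc it was at 186 and 195 CPM, in those labelled KO2 Myc at 125 and 126, and in WT Myc at 132 and 158, so that it fell in WT with the Myc vector, by 0.82 on the log2 scale. The KO line with the lower Trim33 mRNA was thus KO1 among the Ctrl libraries and KO2 among the Myc libraries, where WT Myc lay between the lines. Whether lines and labels match, WT Myc included, was not tested. Results that compare a KO line with its own Ctrl libraries are therefore also given for the mean of both lines, which does not depend on which KO line is which. In the HU experiment Trim33 mRNA was at 141 and 127 CPM in untreated WT and at 49.9 and 43.00 in untreated KO. Myc mRNA was at 415 and 420.5 CPM in WT Ctrl and at 461 and 466 in WT Myc, a log2 fold change (log2FC) of 0.07 that was not called, and it rose by 1.44 ± 0.04 (SE) from the mean of the KO Ctrl groups to the mean of the KO Myc groups.

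A set of members that differed together between libraries lies mostly in 1 stretch of chromosome 4. The largest fitted fold of any member in KO1 or KO2 Ctrl against WT Ctrl was, however, that of Zfp532. That gene lies elsewhere and passed the minimum of 5 CPM only through the KO groups. In the mouse build mm9, to which the reads were mapped, 10 members stand in a run at chr4:145104787-147222475, in the order Zfp980, Zfp992, Zfp987, Zfp600, Zfp991, Zfp982, Zfp985, Zfp979, Zfp534 and Zfp933. Their coding sequences hold KRAB-like letters and finger arrays, as in Zfp600 with 17 matches to the C2H2 pattern and Zfp980 with 14. RefSeq sequences of 3 promoters are shown because their genes moved together, and the stretch of letters they share was computed from these 3. They run from 250 bases before to 50 after the start, on the + strand of GRCm38.p6, a later build than mm9, at chr4:146156577-146156876 for Zfp600, chr4:145670447-145670746 for Zfp980 and chr4:146097062-146097361 for Zfp987. Capitals mark the longest stretch of letters, 28 in all, common to all 3.
Zfp600: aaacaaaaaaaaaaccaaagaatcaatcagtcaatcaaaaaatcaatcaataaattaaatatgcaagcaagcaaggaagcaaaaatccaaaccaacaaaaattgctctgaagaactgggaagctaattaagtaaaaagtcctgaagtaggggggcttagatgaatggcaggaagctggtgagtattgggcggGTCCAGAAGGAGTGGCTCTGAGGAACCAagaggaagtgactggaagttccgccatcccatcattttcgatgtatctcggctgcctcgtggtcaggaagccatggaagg
Zfp980: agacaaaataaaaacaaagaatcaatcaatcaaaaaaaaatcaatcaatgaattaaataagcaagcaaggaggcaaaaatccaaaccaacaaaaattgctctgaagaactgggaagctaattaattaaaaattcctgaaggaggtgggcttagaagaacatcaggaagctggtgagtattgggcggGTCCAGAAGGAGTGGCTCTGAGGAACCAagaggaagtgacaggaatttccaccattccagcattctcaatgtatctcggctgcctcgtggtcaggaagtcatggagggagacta
Zfp987: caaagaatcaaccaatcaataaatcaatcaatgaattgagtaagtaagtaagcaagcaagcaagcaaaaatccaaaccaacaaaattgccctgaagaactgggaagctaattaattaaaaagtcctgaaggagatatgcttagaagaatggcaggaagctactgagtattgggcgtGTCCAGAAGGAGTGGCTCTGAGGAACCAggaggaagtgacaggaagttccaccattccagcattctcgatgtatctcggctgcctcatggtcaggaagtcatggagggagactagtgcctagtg

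Without gaps, 84.7% of the aligned bases were identical between the promoters of Zfp600 and Zfp980, 80.0% between Zfp980 and Zfp987, and 74.3% between Zfp600 and Zfp987. The 28 letters, searched on both strands, stood in the promoters of 8 of 27025 genes, all on chromosome 4: Rex2, Zfp534, Zfp600, Zfp980, Zfp982, Zfp985, Zfp987 and Zfp988, of which 6 are members. Zfp979 and Zfp933, members of the run whose promoters were also searched, did not hold them. The transcripts are similar too, which bears on how reads are shared among these genes. In Zfp600, 79.3% of all stretches of 50 bases of its protein-coding transcripts, untranslated parts included, also occurred in those of another gene. The share was 67.2% in Zfp980, 61.8% in Zfp534 and 58.3% in Zfp987. Counts of these genes could be split between copies by the counting, which is not given in the sources used here, so that the level of any 1 copy is uncertain.

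Zfp600 was at 276 and 267 CPM in WT Ctrl, at 5.01 and 5.52 for KO1 Ctrl, and at 165 and 164 for KO2 Ctrl. With the Myc vector it was at 166 and 175 CPM in WT, at 105 and 118 under the label KO1 Myc and at 3.82 and 6.02 in those labelled KO2 Myc. The KO1 Ctrl and KO2 Myc libraries were thus far below all others, and they are also the KO libraries with the lower Trim33 mRNA. By edgeR's quasi-likelihood test, with Benjamini-Hochberg adjustment over all genes, Zfp600 differed from WT Ctrl by a log2FC of -5.74 ± 0.11 (SE, adjusted p = 1.09e-15) in KO1 and of -0.80 ± 0.08 (SE, adjusted p = 1.49e-07) in KO2, and KO2 Ctrl was above KO1 Ctrl by 4.94 ± 0.11 (SE, adjusted p = 1.5e-14). Rex2, a gene of the same stretch that is no member by its name, had the same order, at 259 and 247 CPM in WT Ctrl, at 4.16 and 5.06 for KO1 Ctrl, and at 3.10 and 4.07 for KO2 Myc.

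The same libraries were low for 8 more members: Zfp534, Zfp979, Zfp980, Zfp982, Zfp985 and Zfp987 of the run, and Zfp986 and Zfp989, for which no position was found. Summed over these and Zfp600, 9 genes in all, the level was from 874 to 902 CPM in WT Ctrl, from 39.0 to 40.3 in KO1 Ctrl and from 560 to 571 in KO2 Ctrl. With the Myc vector the sum was from 576 to 625 CPM in WT, from 411 to 435 in the libraries labelled KO1 Myc and from 40.1 to 44.3 in those labelled KO2 Myc. The 4 libraries of KO1 Ctrl and KO2 Myc lay apart from the other 8. All 9 fell in KO1 Ctrl against WT Ctrl, with log2FCs from -5.74 to -2.43, and all 9 fell in KO2 Ctrl, with log2FCs from -0.91 to -0.44.

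Other genes nearby differed less. Zfp991, Zfp992 and Zfp993 (on chromosome 4 in the RefSeq table) summed to 305 and 313 CPM in WT Ctrl, to 149 and 159 for KO1 Ctrl, and to 278 and 295 for KO2 Ctrl, in order of size, and all 3 fell in KO1, with log2FCs from -1.21 to -0.92. Zfp991 shared 71.1% of its stretches of 50 transcript bases with other genes. Zfp933, the last member of the run, was at 9.22 and 8.78 CPM in WT Ctrl, at 9.56 and 9.72 for KO1 Ctrl, and at 10.4 and 9.14 for KO2 Myc, and was called in no comparison. Of the flanking non-members, Prdm2 was at 45.96 and 50.95 CPM in WT Ctrl and at 49.6 and 50.3 in KO1 Ctrl, and Mfn2 at 49.2 and 48.99 against 57.5 and 58.1, neither of which was called there, while Mfn2 rose in KO2 Ctrl, by 0.25. Vps13d, with log2FCs of -0.17 and 0.01, was called in neither line. Plod1 was at 38.6 and 38.8 CPM in WT Ctrl and fell in both lines, by 0.33 in KO1 and by 0.55 in KO2 on the log2 scale. The 9 genes and the 3 milder ones, called the chr4 group in what follows, were put together after their values were seen, so that their shared pattern is a description.

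**Figure D1:**
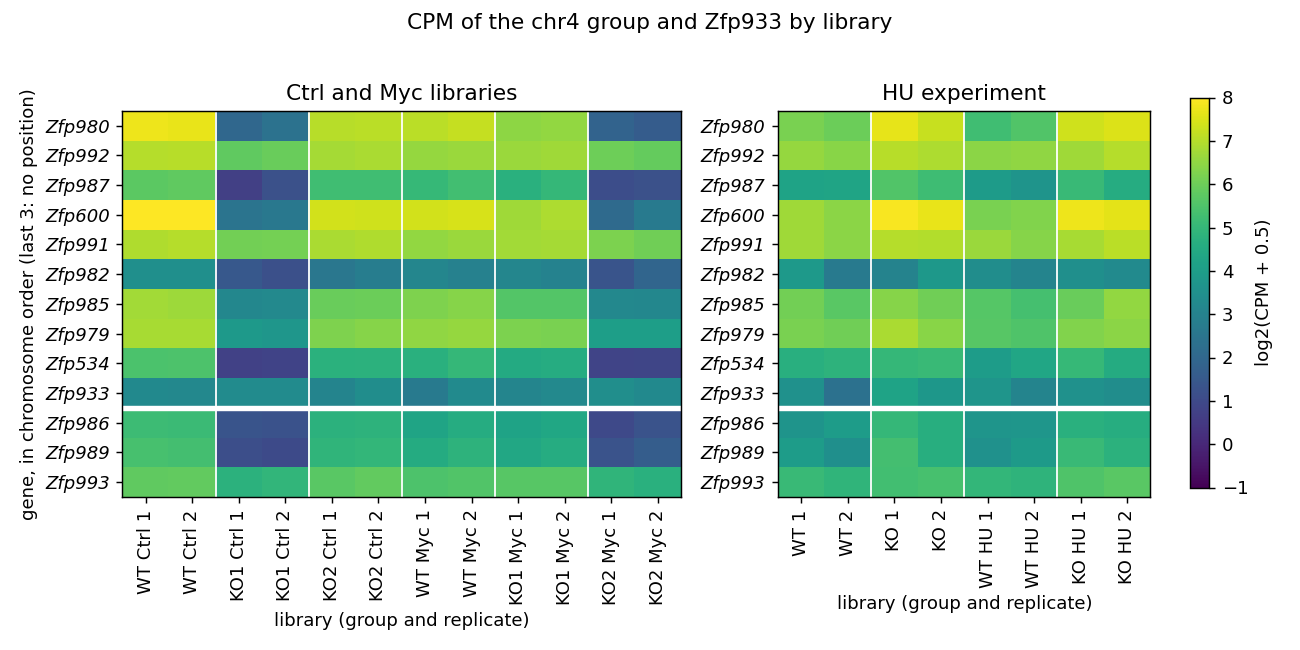
Heat map of log2(CPM + 0.5) for the 12 genes of the chr4 group and Zfp933, with 1 row per gene and 1 column per library, for the Ctrl and Myc libraries (left) and the HU experiment (right). The 4 libraries of KO1 Ctrl and KO2 Myc are dark for 9 genes, whose sum is from 39.0 to 44.3 CPM there, and in the HU experiment that sum is from 342 to 400.4 CPM in untreated WT and from 642 to 799 in untreated KO, although the libraries of Zfp982 overlap.

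In the HU experiment most of the chr4 group was higher in KO. Zfp600 was at 104 and 85.6 CPM in untreated WT and at 243 and 208 in untreated KO, a log2FC of 1.30 ± 0.13 (edgeR, adjusted p = 1.58e-11), and Zfp980 was at 72.1 and 61.9 CPM against 202 and 152, a log2FC of 1.44 ± 0.15 (adjusted p = 2.73e-11). The sum of the 9 genes was from 342 to 400.4 CPM in untreated WT and from 642 to 799 in untreated KO. Of the 12 genes of the chr4 group, 8 rose and 0 fell in untreated KO against untreated WT, where 6.29% and 5.74% of all genes did. In HU-treated KO against HU-treated WT, 10 rose and 0 fell, where 5.75% and 5.25% of all genes did. All 4 KO libraries of that experiment were above all 4 WT libraries for Zfp600 and Zfp980. Zfp982 was at 13.8 and 6.12 CPM in untreated WT and at 7.59 and 13.5 in untreated KO, so that the groups overlapped, and it was not called. With HU, 2 of the 12 fell in WT, Zfp979 and Zfp980, of which Zfp980 went to 37.6 and 46.9 CPM, and 0 of the 12 were called in KO.

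A further pair that was low in KO1 Ctrl and KO2 Myc lies in a run on chromosome 7 at chr7:49728756-50848605, with KRAB-like letters in both. That run holds 8 members, and not all of them followed this pattern. Zfp658 went the other way, from 46 and 50 counts under WT Ctrl to 112 and 106 under KO1 Ctrl. Libraries labelled KO2 Myc had 170 and 172 counts of Zfp658. Zfp936 was at 36.6 and 40.7 CPM in WT Ctrl, at 5.21 and 6.31 in KO1 Ctrl, at 23.1 and 26.2 in KO2 Ctrl and at 2.81 and 4.40 in KO2 Myc. Zfp977 was at 13.4 and 15.7 CPM in WT Ctrl, at 4.62 and 3.94 for KO1 Ctrl, at 11.1 and 12.7 for KO2 Ctrl and at 1.37 and 1.67 for KO2 Myc. KO2 Ctrl was above KO1 Ctrl by a log2FC of 2.07 ± 0.16 for Zfp936 and of 1.44 ± 0.15 for Zfp977, both called, and these genes were picked out after their values were seen. In the HU experiment Zfp936 was at 25.1 and 16.1 CPM in untreated WT and at 20.8 and 16.1 in untreated KO, which was not called.

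The question for the whole family was whether its members moved together when Trim33 was lost. In KO1 Ctrl against WT Ctrl, 39 of 280 members rose and 79 fell (adjusted p below 0.01), or 13.9% and 28.2%, where 25.5% and 26.7% of all 13107 genes did. In KO2 Ctrl, 40 rose and 70 fell, or 14.3% and 25%, where 23.3% and 26.6% of all genes did. The median log2FC of the members was -0.12 in KO1 and -0.08 in KO2, where that of all genes was -0.0036 and -0.011. Over all members, the share that fell was thus near that of all genes, the share that rose was lower, and the median shift was small. Of the 10159 other genes with a mean of at least 5 CPM, 27.1% rose and 28.9% fell in KO1, and 25.7% rose and 29.6% fell in KO2. Among the 138 members with at least 20 CPM, the share that fell was above that of all genes in both lines. The share of other genes at that level was not counted, so that level and membership cannot be told apart there. Their counts are given below. For the mean of both lines, 46 rose and 83 fell, where 26% and 29.5% of all genes did. The 2 lines share the WT Ctrl libraries, so that they are not independent. Without WT Ctrl replicate 1, 24 members rose in KO1, and without WT Ctrl replicate 2, 29 rose in the mean of both lines. The medians without the chr4 group were -0.10 in KO1 and -0.07 in KO2.

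Between the lines, KO2 Ctrl against KO1 Ctrl, 33 members rose and 9 fell, where 8.33% and 9.96% of all genes did. The chr4 group gave 12 of the 33, and 21 rose without it. Zfp518b was at 11.5 and 13.2 CPM in KO1 Ctrl and at 29.2 and 32.2 in KO2 Ctrl, a log2FC of 1.28 ± 0.12 (edgeR, adjusted p = 3.17e-07). Among the Myc libraries its order was reversed, with 406 and 411 counts under the label KO1 Myc against 199 and 212 for KO2 Myc. Zfp462 followed the same order as Zfp518b. The pattern of the chr4 group and the chromosome 7 pair was thus not confined to them. Of the members that fell, Zfp219 was at 48.5 and 48.1 CPM in KO1 Ctrl and at 35.7 and 31.5 in KO2 Ctrl. The Ctrl libraries of the lines did not overlap for Zfp518b or Zfp219, as for all 42 members called here. Without KO1 Ctrl replicate 1, 2 members fell, and without KO1 Ctrl replicate 2 or KO2 Ctrl replicate 1, 3 fell.

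**Figure D2:**
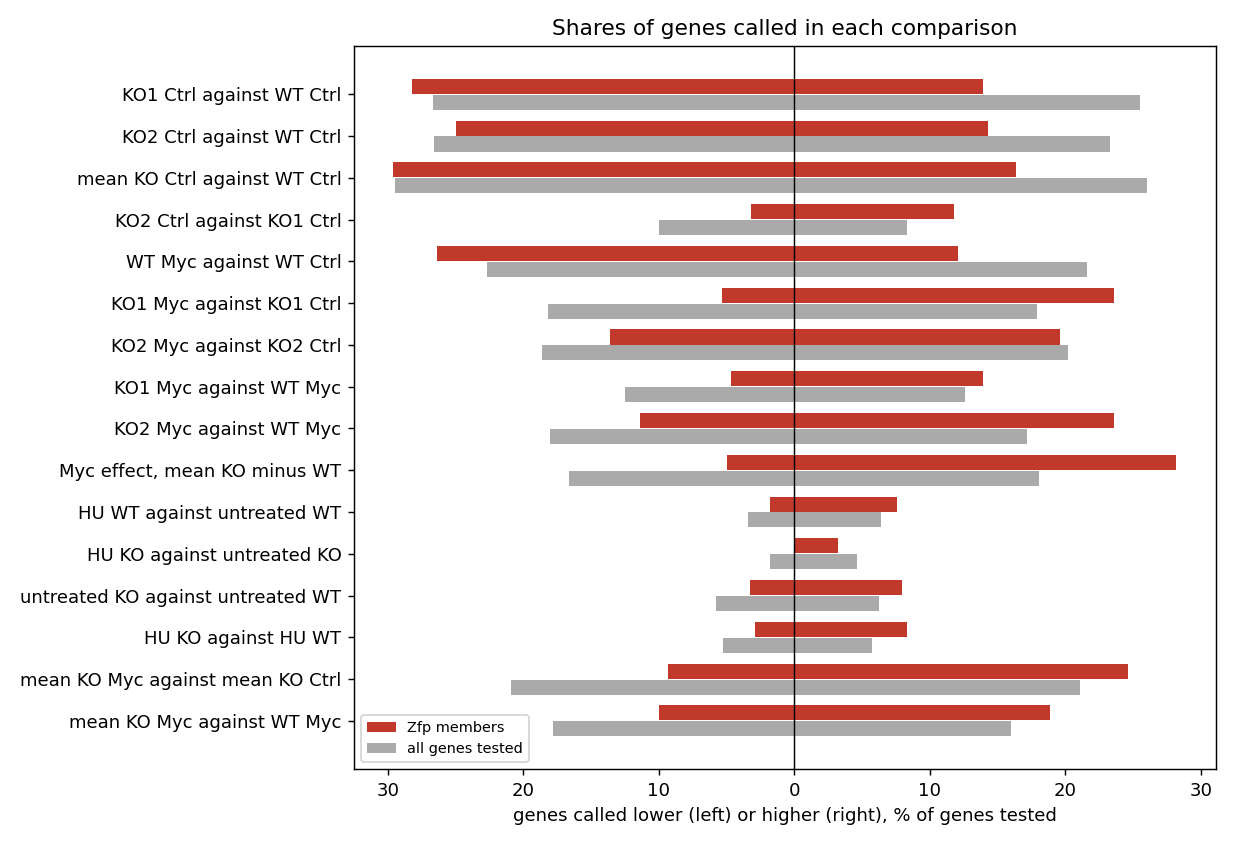
Percentage of genes called higher (right of 0) or lower (left of 0) in each comparison, for the Zfp members (red) and all genes tested (grey), by edgeR's quasi-likelihood test at an adjusted p below 0.01 in the Myc experiment and below 0.05 in the HU experiment. In KO1 Ctrl against WT Ctrl, 13.9% of members rose against 25.5% of all genes, and in the difference of the Myc effect 28.2% of members were higher against 18.1%.

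The members divide by the domains their coding sequences hold. Of 272 members with a coding sequence in GENCODE vM1, 144 held KRAB-like letters and 128 did not, and matches to the C2H2 pattern ranged from 0 to 37, with a median of 10. Of 118 members in 16 runs (at least 4 members with gaps of at most 500 kb), 92 held KRAB-like letters, against 52 of 154 outside runs. Of the 144, 12 rose and 44 fell in KO1 Ctrl, with a median log2FC of -0.20, and 11 rose and 37 fell in KO2 Ctrl, with a median of -0.13. Of the 128 without such letters, 25 rose and 32 fell in KO1, with a median of -0.03, and 29 rose and 30 fell in KO2, with a median of -0.01. Of all genes, 25.5% rose and 26.7% fell in KO1, and 23.3% rose and 26.6% fell in KO2. Members with KRAB-like letters were thus called higher less often than all genes in either line. Without the chr4 group, the medians of the class with KRAB-like letters were -0.18 and -0.10. The difference between the classes was not tested.

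**Figure D3:**
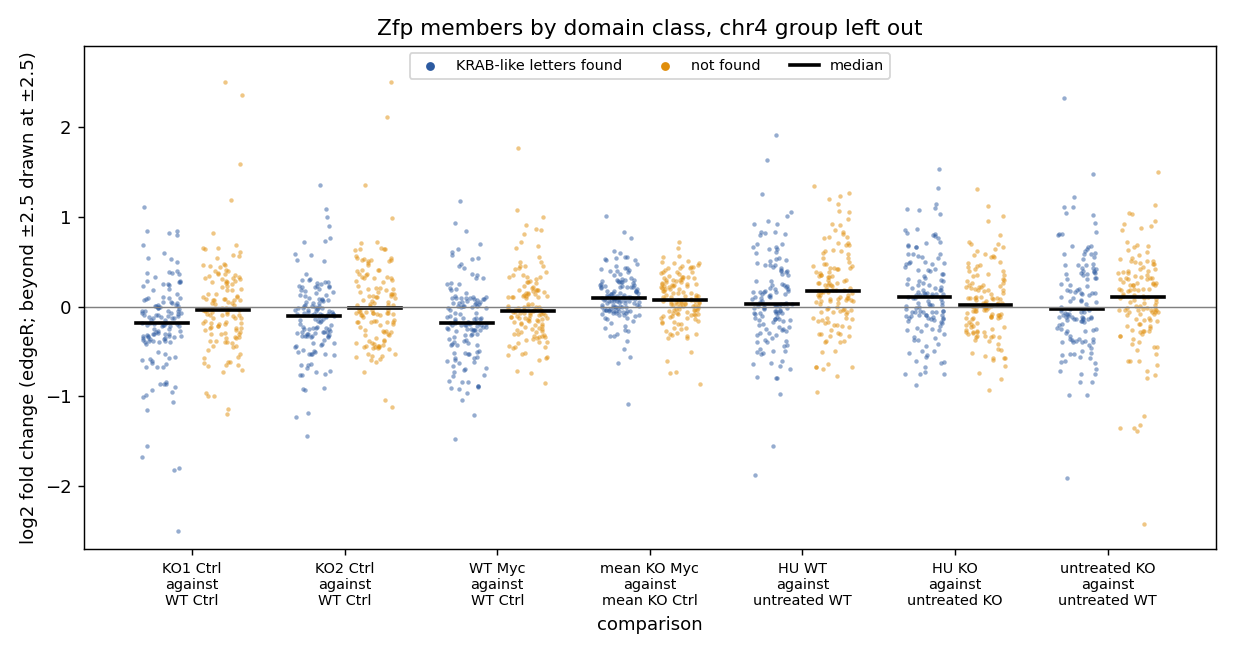
Log2 fold change of each Zfp member outside the chr4 group (points) in 7 comparisons, for members with KRAB-like letters (blue) and without (orange), with the median of each class as a black bar. In KO1 Ctrl the medians were -0.18 and -0.03, and in all 7 comparisons the points of both classes lie mostly on both sides of 0.

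Members with known roles are given next, by function. Zfp36 (tristetraprolin), a CCCH zinc finger protein that binds AU-rich elements and speeds the decay of cytokine mRNAs, was at 21.8 and 20.3 CPM in WT Ctrl, at 122 and 101 for KO1 Ctrl, and at 101 and 90.5 for KO2 Ctrl. The log2FC was 2.35 ± 0.10 for KO1 (edgeR, adjusted p = 1.56e-11), and 2.11 ± 0.11 for KO2 (adjusted p = 8.6e-11). No KO Ctrl library overlapped WT Ctrl, as for all 118 members called in KO1 and all 110 in KO2, so that this adds nothing to the call. Its relatives Zfp36l1 and Zfp36l2 act on mRNA in a like way. Zfp36l1 was at 67.4 and 69.5 CPM in WT Ctrl, at 73.6 and 72.9 for KO1 Ctrl, and at 58.9 and 60.9 for KO2 Ctrl, and fell in KO2, by 0.27 on the log2 scale. Zfp36l2, the member with the highest mean, 390.4 CPM, had log2FCs of -0.03 and 0.16 that were not called.

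Of 12 corepressor and cofactor genes, 3 rose (Zfp219, Zfp532 and Zfp687) and 3 fell (Zfp608, Zfp703 and Zfp827) in the mean of both lines, shares near the 26% and 29.5% of all genes. Zfp532 had 0 and 3 counts in WT Ctrl, against 139 and 156 for KO1 Ctrl, and 138 and 132 for KO2 Ctrl. It is a member only through the KO groups, where it is high, so that its large ratio is favored by the choice of members. Scaled to library size and summed over the libraries of a group, the ratio to WT Ctrl was 97.2 in KO1 (95% counting interval 32.9 to 474) and 89.4 in KO2 (30.3 to 436), where the intervals cover counting error only. With the Myc vector it had 12 counts in WT and 289 and 357 in the groups labelled KO1 and KO2. In the HU experiment Zfp532 was at 23 and 12 counts in untreated WT and at 0 and 17 in untreated KO, so that WT was not near 0 there and the groups overlapped.

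Zfp219, a C2H2 transcription factor, was at 20.7 and 20.04 CPM in WT Ctrl and rose in both lines, by a log2FC of 1.19 ± 0.09 in KO1 and of 0.64 ± 0.09 in KO2 (edgeR, adjusted p = 5.21e-09 and 1.24e-05). Zfp703, a corepressor known from luminal breast cancer, fell in both, by 0.35 in KO1 and by 0.55 in KO2 on the log2 scale. Zfp469, whose human counterpart is mutated in brittle cornea syndrome, went from 35.5 and 33.99 CPM in WT Ctrl to 105 and 111 for KO1 Ctrl, and to 90.8 and 97.8 for KO2 Ctrl. No library of either line overlapped WT Ctrl for Zfp469, and the log2FCs were 1.58 ± 0.13 and 1.36 ± 0.13.

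Falls shared by both lines outside the chr4 group included that of Zfp110 (Nrif), a KRAB zinc finger protein that binds the neurotrophin receptor p75. It was at 167 and 172 CPM in WT Ctrl, at 54.3 and 56.3 for KO1 Ctrl, and at 66.4 and 66.2 for KO2 Ctrl, with log2FCs of -1.67 ± 0.07 and -1.44 ± 0.07 (edgeR, adjusted p = 1.29e-11 and 8.71e-11). Zfp655 went from 86.9 and 92.3 CPM to 40.5 and 40.5 for KO1 Ctrl, and to 41.3 and 46.2 for KO2 Ctrl. Zfp330, a nucleolar protein, was at 77.5 and 78.98 CPM in WT Ctrl, at 41.5 and 42.2 for KO1 Ctrl, and at 38.3 and 42.7 for KO2 Ctrl. For all 3 genes the KO Ctrl libraries lay below the WT Ctrl libraries.

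Of 13 genes for RNA, ribosome, ubiquitin and mitosis functions, 3 rose and 4 fell in the mean of both KO lines, again near the 26% and 29.5% of all genes. Zfp598, the ubiquitin ligase that marks collided ribosomes, fell by 0.73 in KO1 and by 0.56 in KO2 on the log2 scale, but in the HU experiment it was higher in untreated KO than in untreated WT, by 0.51 ± 0.16 (edgeR, adjusted p = 0.0262). Zfp622, a factor of ribosome assembly, fell by 0.38 and by 0.46. Zfp638, a nuclear RNA-binding protein, rose by 0.41 and 0.51. Zfp207 (BuGZ), which helps chromosomes attach to the spindle, had log2FCs of -0.03 and -0.06 that were not called. Of 4 imprint and retroelement repressors, 0 rose and 3 fell in the mean of both lines, where 26% and 29.5% of all genes did, by log2FCs of -0.44 for Zfp57 and -0.31 for Zfp445, which protect imprints, and of -0.32 for Zfp568, a repressor of an Igf2 transcript. Zfp57 was not alike in the lines, with a log2FC of -0.86 in KO1 and of -0.01 in KO2, which was not called. In KO2 Ctrl alone only Zfp445 fell among these 4. Values in the HU experiment went the opposite way for Zfp57, at 32.0 and 26.4 CPM in untreated WT and 53.1 and 46.3 in untreated KO, a rise of 0.81 ± 0.22 (edgeR, adjusted p = 0.00768), and in HU-treated KO against HU-treated WT Zfp57 rose by 0.83 and Zfp568 by 0.60, with 0 of the 4 lower. Zfp809, which silences retroviruses, had a log2FC of 0.04 in the mean of both lines that was not called. Of 6 sequence-specific factors of many cell types, Zfp143 and Zfp384 rose and Zfp740 fell.

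The proteins through which KRAB zinc fingers silence chromatin were read as well. Of 24 such genes, 13 rose and 2 fell in KO1 Ctrl, where 25.5% and 26.7% of all genes did, with a median log2FC of 0.25. In KO2 Ctrl, 15 rose and 1 fell, where 23.3% and 26.6% of all genes did, with a median of 0.43. Trim28 rose by a log2FC of 0.30 ± 0.05 in KO1 and of 0.44 ± 0.05 in KO2. Uhrf1, which carries DNA methylation through replication, rose by 1.42 and 1.82, and Tasor, of the HUSH silencing complex, fell by 0.64 and by 0.63 on the log2 scale. Setdb1 rose in KO2, by 0.52, and was not called in KO1, at 0.10. The rise was not particular to the KO lines. In WT Myc against WT Ctrl, 11 of the 24 rose and 4 fell, where 21.6% and 22.7% of all genes did. Trim28 rose there by 0.45 and Uhrf1 by 1.36. For the mean of KO1 and KO2 Myc against WT Myc, 7 rose and 1 fell, where 16% and 17.8% of all genes did. Trim28, at -0.0053, and Uhrf1, at 0.13, were not called in it. In untreated KO against untreated WT of the HU experiment, 2 of the 24 rose and 1 fell, near the 6.29% and 5.74% of all genes, and Trim24, the other TIF1 relative, rose by 1.34 ± 0.16 (edgeR, adjusted p = 2.27e-09).

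**Figure D4:**
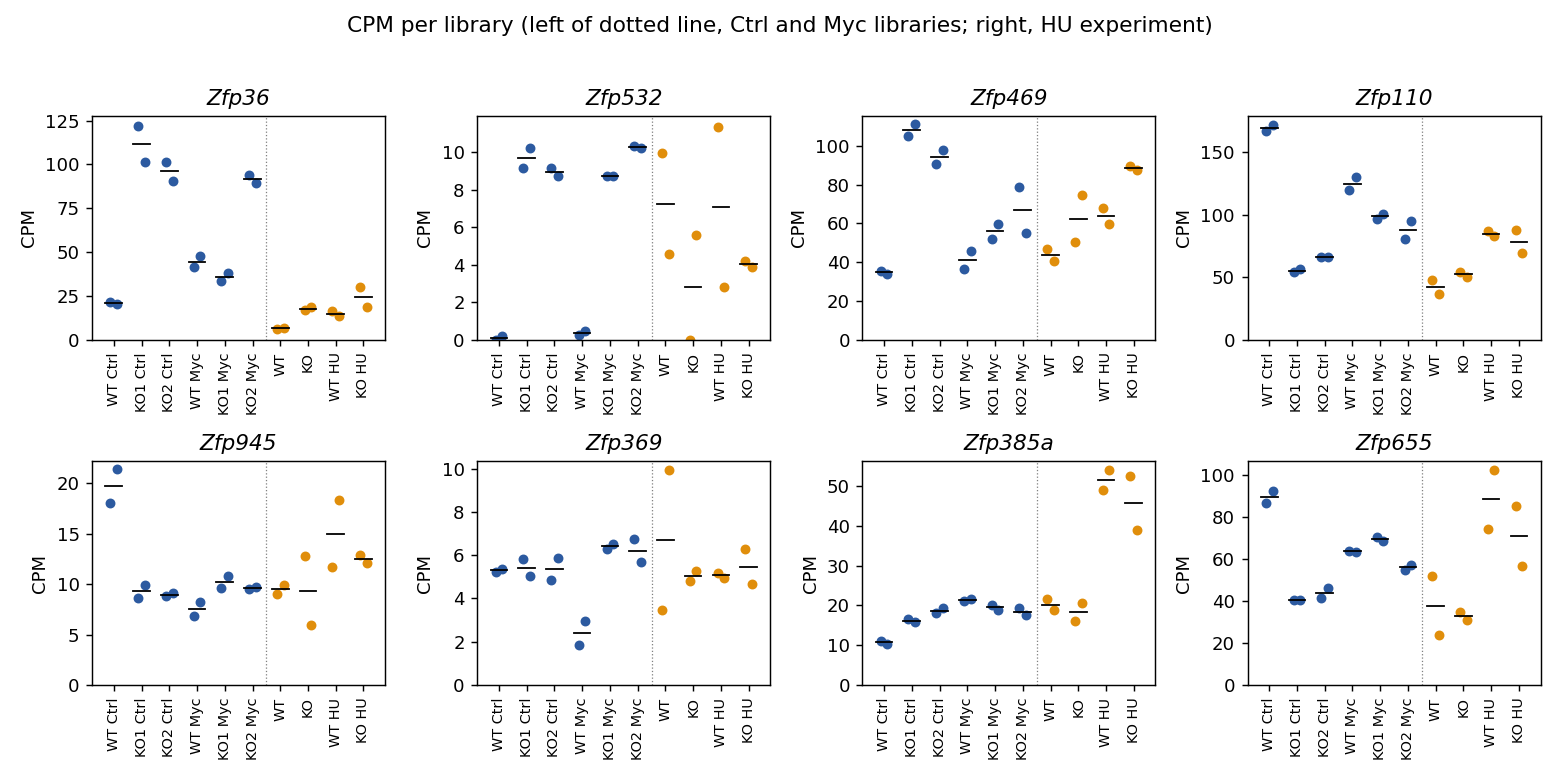
CPM of 8 named Zfp genes in each library (points, blue for the Ctrl and Myc libraries and orange for the HU experiment) by group, with the group mean as a black bar and each axis starting at 0. Zfp36 stands at 21.8 and 20.3 CPM in WT Ctrl and from 90.5 to 122 in the KO Ctrl libraries, and Zfp385a is high in all 4 HU-treated libraries.

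In the HU experiment, untreated KO against untreated WT, 22 of 277 members rose and 9 fell (adjusted p below 0.05), where 6.29% and 5.74% of all 11210 genes did. The median log2FC was 0.09, against -0.0001 for all genes, and it was 0.05 without the chr4 group, where 14 members rose. Zfp36 rose here too, from 6.05 and 6.88 CPM to 16.8 and 18.7 (log2FC 1.49 ± 0.38, edgeR, adjusted p = 0.00427). Zfp810, with KRAB-like letters, was at 13.8 and 13 CPM in untreated WT and at 3.59 and 3.28 in untreated KO, from 9 and 10 counts, and its call was lost without untreated KO replicate 2, at a log2FC of -1.84. Zfp110 was at 47.5 and 36.7 CPM against 54.3 and 50.5, a log2FC of 0.36 that was not called. Without untreated KO replicate 1 or untreated WT replicate 2, 9 members rose, and without untreated KO replicate 2, 4 fell, while 5 fell without untreated KO replicate 1 or untreated WT replicate 1. Under HU, KO against WT, 23 members rose and 8 fell, where 5.75% and 5.25% of all genes did, and 13 rose without the chr4 group. Without HU-treated WT replicate 1, 10 rose and 3 fell, without HU-treated WT replicate 2, 6 and 3, without HU-treated KO replicate 1, 9 and 5, and without HU-treated KO replicate 2, 10 and 5.

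The next question was how the members moved with the Myc vector. In WT Myc against WT Ctrl, where Myc mRNA itself was not called, 34 members rose and 74 fell, where 21.6% and 22.7% of all genes did, and the median log2FC was -0.13, against 0.0069 for all genes. Of members with KRAB-like letters, 9 rose and 44 fell, and of those without, 24 rose and 25 fell. Without WT Ctrl replicate 1, 20 rose, and without WT Ctrl replicate 2, 16 rose and 48 fell. Zfp945 was at 18.1 and 21.4 CPM in WT Ctrl and at 6.84 and 8.20 in WT Myc, a log2FC of -1.47 ± 0.12 (edgeR, adjusted p = 7.44e-08). It lies in a run of 16 members on chromosome 17, at chr17:21145905-23004101, of which 0 rose and 9 fell. That run is given because it holds Zfp945, which is among the 9, and the other runs are not given here. Zfp369 (Nrif2), the close relative of Zfp110, was at 5.22 and 5.37 CPM against 1.84 and 2.95. The WT Myc libraries lay below WT Ctrl for both genes, and the groups did not overlap for any of the 108 members called here. Of the members that rose, Zfp36 went to 41.7 and 47.6 CPM, and all 3 CCCH genes rose, Zfp36l1 by 0.43 and Zfp36l2 by 0.20.

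From the mean of the KO Ctrl groups to the mean of the KO Myc groups, 69 members rose and 26 fell, where 21.1% and 20.9% of all genes did, with a median log2FC of 0.08. This comparison and that of the mean of both lines with WT Myc were added after the data were seen. By the labels, 66 rose and 15 fell in KO1, where 17.9% and 18.2% of all genes did, and 55 rose and 38 fell in KO2, where 20.2% and 18.6% did. The chr4 group gave 12 of the 66 and 12 of the 38, in opposite directions, and in the mean of both lines 0 of its 12 genes rose and 2 fell. In KO2, 27 rose without KO2 Ctrl replicate 1, 24 without KO2 Ctrl replicate 2, 32 without KO2 Myc replicate 1 and 29 without KO2 Myc replicate 2. In the mean of both lines Zfp598 rose by a log2FC of 0.72 ± 0.05 (edgeR, adjusted p = 1.48e-08) and Zfp566, which holds KRAB-like letters, by 1.01 ± 0.09. Zfp36 fell by 0.86 on the log2 scale and Zfp469 by 0.73. By the labels Zfp36 was at 33.6 and 38.03 CPM in KO1 Myc and at 94.1 and 89.3 in KO2 Myc, so that the groups were apart.

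The change with the Myc vector differed between the KO lines and WT, for Myc mRNA itself as well as for members. The difference, the mean of KO1 and KO2 minus WT, was above 0 for 79 members and below 0 for 14 past the threshold, where 18.1% and 16.6% of all genes were, and the median was 0.20, against 0.0003 for all genes and 0.17 without the chr4 group. Without WT Ctrl replicate 2 it was above 0 for 47 and below 0 for 9. The called members with the largest positive difference were Zfp945 (1.59 ± 0.16), Zfp369 (1.43 ± 0.25) and Zfp760 (1.35 ± 0.11), which fell in WT Myc. In the mean of the KO lines Zfp760 rose with the Myc vector, by 0.31, and Zfp945 and Zfp369 had log2FCs of 0.12 and 0.22 that were not called. Those with the largest negative difference were Zfp36 (-1.86 ± 0.13), Zfp41 (-1.21 ± 0.19) and Zfp467 (-1.19 ± 0.18). Of members with KRAB-like letters, 46 were above 0 and 3 below, and of those without, 31 and 11. The WT Ctrl libraries enter this difference, the WT Myc comparison and the KO Ctrl comparisons, so that a value particular to them moves all of these. For Myc mRNA the same difference was 1.38 ± 0.07 (SE), so that its rise with the vector was not equal. Myc mRNA was at 185 and 196 CPM in KO1 Ctrl and at 213 and 222 in KO2 Ctrl. For the mean of both lines its log2FC was -1.11 against WT Ctrl, and 0.27 with the Myc vector against WT Myc. The part of this unequal rise in the counts of members was not tested.

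**Figure D5:**
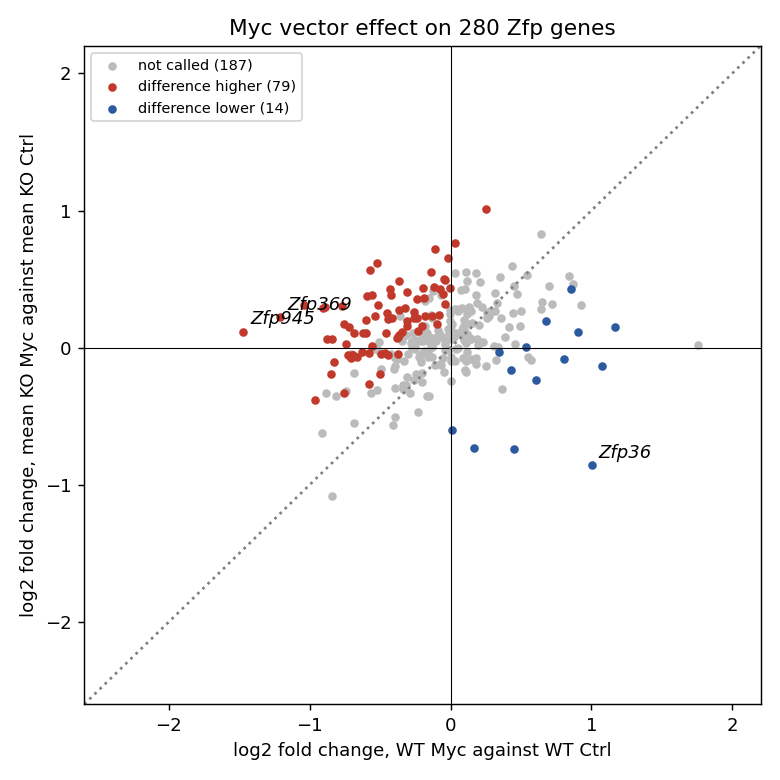
Log2 fold change with the Myc vector in WT (x axis) and in the mean of KO1 and KO2 (y axis) for the 280 members, with 79 members whose difference was higher in the KO lines in red, 14 lower in blue, 187 not called in grey, and a dotted line of equal change. Most red points lie left of 0 on the x axis, and Zfp36 is at 1.00 in WT and -0.86 in the KO lines.

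With the Myc vector in all cells, the mean of KO1 and KO2 Myc was set against WT Myc, and 53 members rose and 28 fell, where 16% and 17.8% of all genes did, with a median log2FC of 0.08, and 17 fell without the chr4 group. Trim33 mRNA itself was not lower in this comparison, with a log2FC of 0.10 that was not called. By the labels it was higher in KO1 Myc than in WT Myc, by 0.40, and not called in KO2 Myc, at -0.20. By the labels, 39 rose and 13 fell in KO1 Myc, where 12.6% and 12.5% of all genes did, and 66 rose and 32 fell in KO2 Myc, where 17.2% and 18% did. These numbers moved with single libraries. Without WT Myc replicate 1, 24 rose in KO1 and 34 in the mean, and without WT Myc replicate 2, 59 rose in KO1. Without KO1 Myc replicate 1, 7 fell in KO1, without KO1 Myc replicate 2, 17 rose in KO1, and without KO2 Myc replicate 1, 37 rose in KO2. The libraries of WT Myc differed by 11 times counting noise (mean squared difference over genes), against 2.21 to 4.52 in the other groups of that experiment.

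The last question was which members moved with HU. In WT cells, 21 rose and 5 fell with HU, where 6.39% and 3.44% of all genes did, with a median log2FC of 0.09, against 0 for all genes. The share of members called in either direction, 9.39%, was thus near that of all genes. In KO cells, 9 rose and 0 fell, where 4.65% and 1.8% of all genes did, with a median of 0.03, and DESeq2 also called 0 lower, while 33 members had an unadjusted p below 0.05 in either direction. Of the 21, 4 held KRAB-like letters and 17 did not, and of the 9, 1 and 8. Without HU-treated WT replicate 1, 10 rose and 1 fell in WT, without HU-treated WT replicate 2, 11 rose and 2 fell, and without untreated WT replicate 1, 1 fell. In KO, 5 rose without HU-treated KO replicate 1 or untreated KO replicate 2, 2 fell without the latter, and 1 fell without HU-treated KO replicate 2.

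Zfp385a (Hzf), a zinc finger protein induced by p53, was at 21.6 and 18.7 CPM in untreated WT and at 48.99 and 54.01 with HU, and at 15.97 and 20.7 in untreated KO and at 52.6 and 39.01 with HU. The treated and untreated libraries did not overlap in either genotype, as for all 26 members called in WT and all 9 in KO. The log2FC was 1.34 ± 0.24 in WT (edgeR, adjusted p = 1.91e-05) and 1.31 ± 0.24 in KO (adjusted p = 4.88e-05). Zfp365, a protein linked to genome stability, was at 82.9 and 85.6 CPM in untreated WT and at 152 and 155 with HU, and at 117 and 116 in untreated KO and at 190.5 and 180.2 with HU, with log2FCs of 0.86 ± 0.13 and 0.66 ± 0.13. It was also higher in untreated KO than in untreated WT, by 0.51, and in the Myc experiment it rose in both KO lines, by 0.37 and 0.55.

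Zfp703 rose with HU from 28.9 and 26.8 CPM to 67.5 and 67.1 in WT, a log2FC of 1.26 ± 0.22, and from 16.8 and 14.4 to 27.2 and 26.9 in KO, a log2FC of 0.79 ± 0.25. Its KO libraries lay below the WT libraries both without and with HU. Zfp36l1 rose in both genotypes, from 45.8 and 44.3 CPM to 86.3 and 84.7 in WT and from 26.4 and 26.9 to 58.5 and 48.8 in KO. Zfp36 rose in WT, by 1.20 ± 0.38 (edgeR, adjusted p = 0.0301), and had a log2FC of 0.45 in KO that was not called. Zfp655 rose in WT by 1.23 ± 0.22 and in KO by 1.12 ± 0.22, but its untreated WT libraries lay apart, at 51.8 and 23.7 CPM, and DESeq2 did not call it in WT, at 1.21. Zfp948, with KRAB-like letters, went from 15.5 and 15.3 CPM to 49.96 and 46.6 in WT. Zfp825, also with such letters, fell in WT, from 13.8 and 13.4 CPM to 5.52 and 1.76, the last from 5 counts, and its call was lost without that library, HU-treated WT replicate 2, at a log2FC of -1.30.

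The difference of the HU effect between KO and WT was called for 0 of 277 members by edgeR and by DESeq2, where edgeR called 0.0446% of all genes higher in KO and 0.0268% lower, while 21 members had an unadjusted p below 0.05. Without untreated WT replicate 1, 1 member was called lower. At this depth no difference between the genotypes in the response to HU was detectable for a single member. For Zfp36 the difference was -0.74, with an SE of 0.49.

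The promoters of 229 members were found in the RefSeq table. The letters CACGTG, the core E-box that Myc binds, were in 7.9% of them, against 7.2% of the promoters of all 27025 genes, and TTTCCCGC, letters that E2f proteins bind, in 2.6% against 1.1%, both searched on both strands in windows of 300 bases. The members' promoters held a median of 14 CpG letters, against 7 for all genes. These shares describe the windows and were not tested against the expression changes.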

How the data were processed

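RNA-seq of p19/Nras cells was measured in 12 libraries of the Myc experiment and 8 of the HU experiment, grouped by their titles. The authors deposited whole-number read counts per gene, made from reads mapped to mm9 with STAR 2.5.4 (bcl2fastq 2.20 and FastQC 0.11.5 before it, edgeR 3.26.8 after it). The counting tool and annotation are not given in the sources used here. The table of the Myc experiment is named as normalized but holds whole numbers of unequal totals and was tested as counts. Of the counts of the HU experiment 71.9% are even, against 48.4% in the other, and dividing by 2 was tried as an alternative. The 8 deposited tables of the authors' own comparisons (log fold change, log CPM, F, p and adjusted p) were not used.

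Each experiment was fitted in edgeR 4.0.16 (R 4.3.3; TMM scaling, quasi-likelihood test, 1 coefficient per group, no block, all genes, Benjamini-Hochberg adjustment). Calls were at an adjusted p below 0.01 in the Myc experiment and below 0.05 in the HU experiment, and a fold change is given with its standard error (SE). The common biological coefficient of variation was 0.0498 and 0.102. Positions and coding sequences (GENCODE vM1, mm9) were found for 272 members, 248 by symbol and 24 by synonym. KRAB-like letters and C2H2 patterns were searched in the translated coding sequences. Zfp267 was matched in the HU table by its Entrez number. Scripts were tested on simulated data.

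Members and lists were chosen with earlier results of these data known. Named genes are those of the role lists and, for each comparison, up to 5 called members with the largest rise and 5 with the largest fall whose groups did not overlap. In every comparison of single groups, all called members had groups that did not overlap, so that this adds nothing to a call. The share over all genes was not counted. Zfp933, Zfp936, Zfp977, Zfp518b and Zfp365, where outside that rule, the chr4 group and the run on chromosome 17 were chosen after their values were seen. Alternatives were DESeq2 1.42.0, RLE size factors, filters on low counts, the compared groups alone, a replicate block, other thresholds, other CPM minimums, and leaving out each library or the chr4 group.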

Additional observations from a re-analysis of the deposited data

Results flagged for a closer look

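The Myc effect differed between the KO lines and WT by the test of the difference itself (edgeR, adjusted p below 0.01), with 79 members higher in the KO lines and 14 lower. Myc mRNA differed there too, by 1.38, so that its rise with the vector was not equal in the KO lines and WT. It started lower in the KO lines, at a log2FC of -1.11 against WT Ctrl, and was at 0.27 against WT Myc. The lines themselves differed in the same way of testing, with 33 members higher and 9 lower in KO2 Ctrl than in KO1 Ctrl, of which the chr4 group gave 12 higher. Both comparisons use libraries that other comparisons share, and their causes were not tested.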

How the results depend on the processing

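Of the recomputed counts of members, 424 stayed within 1.5 times the value reported and 92 did not. Of the recomputed values of named genes, 275 kept their direction and side of the threshold, 3 lost their call and 0 reversed. RLE size factors, a filter at a mean of 5 CPM, counts divided by 2 and all 348 Zfp genes moved no count by more. A setting without a filter repeats the main fit, which has none. Its values are among the 424 and the 275 and were the same by construction. Counts that moved are given as higher or lower, and the cause was not tested.

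With DESeq2, KO2 Ctrl against KO1 Ctrl had 5 lower, WT Myc 22 higher, KO2 Myc against KO2 Ctrl 32 higher, HU WT 12 higher and 3 lower, HU KO 4 higher, untreated KO 13 higher, and HU KO against HU WT 12 higher and 4 lower. With the compared groups alone, KO2 Ctrl against KO1 Ctrl had 51 higher, WT Myc 17 higher, KO1 Myc against KO1 Ctrl 23 lower, KO1 Myc against WT Myc 18 higher and 6 lower, KO2 Myc against WT Myc 36 higher, the mean of both lines against WT Myc 35 higher, and HU KO against HU WT 13 lower.

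Among the 138 members with at least 20 CPM, fewer genes by construction, KO1 Ctrl had 17 higher and 51 lower, KO2 Ctrl 20 and 43, their mean 19 and 50, KO2 Ctrl against KO1 Ctrl 21 higher, WT Myc 18 higher, KO1 Myc against KO1 Ctrl 9 lower, KO2 Myc against KO2 Ctrl 34 higher, KO2 Myc against WT Myc 41 and 21, the Myc difference 7 lower, HU WT 3 lower, the mean KO Myc against KO Ctrl 43 and 17, and against WT Myc 17 lower. Without the chr4 group, KO2 Ctrl against KO1 Ctrl had 21 higher, KO2 Myc against WT Myc 20 lower, HU WT 3 lower, untreated KO 14 higher, HU KO against HU WT 13 higher, and the mean KO Myc against WT Myc 17 lower. At a threshold of 0.05, KO1 Myc against KO1 Ctrl had 31 lower, KO2 Myc against KO2 Ctrl 83 higher, KO1 Myc against WT Myc 27 lower, the Myc difference 23 lower, and the mean KO Myc against WT Myc 87 higher. At 0.01, untreated KO had 10 higher and 4 lower, and HU KO against HU WT 11 and 4.

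Leaving out 1 library gave these ranges: KO1 Ctrl 24 to 30 higher, the mean of both lines 29 to 41 higher, KO2 Ctrl against KO1 Ctrl 2 to 6 lower, WT Myc 16 to 30 higher and 48 to 89 lower, KO2 Myc against KO2 Ctrl 24 to 32 higher, KO1 Myc against WT Myc 17 to 59 higher and 7 to 19 lower, KO2 Myc against WT Myc 37 to 83 higher, the mean KO Myc against WT Myc 34 to 72 higher, the Myc difference 47 to 95 higher and 9 to 20 lower, HU WT 10 to 16 higher and 1 to 5 lower, HU KO 5 to 8 higher and 0 to 2 lower, untreated KO 9 to 24 higher and 4 to 7 lower, HU KO against HU WT 6 to 10 higher and 3 to 5 lower, and the HU difference 0 to 1 lower.

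The replicate numbers are shared by the groups. Deviations of same-numbered libraries correlated from -0.148 to 0.192 over 15 pairs of groups in the Myc experiment and from -0.0136 to 0.051 over 6 in the HU experiment. With 2 libraries per group, such weak values cannot show whether same-numbered libraries share a culture or a preparation. With the replicate block, KO1 Ctrl had 38 higher and 83 lower, KO2 Ctrl 42 and 71, and the Myc difference 81 and 15, and no count moved by over 1.5 times.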
